A study of Mus musculus with 2 samples.

Results

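The Slit and Robo guidance genes Slit2, Slit3, Robo1 and Robo2 were followed in the open chromatin of the embryonic mouse kidney. They were chosen by name as the Slit ligands and Robo receptors under study, and they are 4 of 16848 protein-coding genes with a region counted in both libraries. Chromatin accessibility was measured by single-nucleus ATAC-seq (snATAC-seq), an assay that counts transposase cuts at accessible DNA in each nucleus. Whole kidneys of E15.5 mouse embryos were compared in 2 groups of 1 library each. The Enl-WT library came from Enl +/+ Wt1 GFPCre/+ embryos, and the Enl-T1 library came from Enl flox-T1/+ Wt1 GFPCre/+ embryos, which carry 1 Enl allele with the Wilms tumour insertion in the YEATS domain of ENL, a reader of acetylated histones. Both groups therefore carry the Wt1-GFPCre knock-in, in which 1 Wt1 allele is disrupted, and the study describes Wt1-Cre expression as limited to the nephron and stroma. How many embryos went into each library was not stated in the sources used.

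Slit2 and Slit3 encode large secreted ligands, and Robo1 and Robo2 encode transmembrane receptors that bind them. First described in axon guidance, the system also acts in the kidney, where Slit2 signalling through Robo2 limits the domain of Gdnf and so keeps the ureteric bud to a single outgrowth, and where ROBO2 is also found in podocytes. Introns of Slit2 and Slit3 host the microRNA genes Mir218-1 and Mir218-2. Accessibility is not expression, and no transcript level was measured in these libraries.

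A member region is a shared region, made of joined overlapping peaks with at least 1 from each library, that overlaps the gene body or the 2 kb upstream of it. The peak width of a library in a region is the summed length of its peaks there. There were 127 such regions of 110706 shared regions in all. Slit2 (chr5:47983138-48307733, plus strand) had 18 shared regions, Slit3 (chr11:35121224-35708507, plus strand) had 54, Robo1 (chr16:72308306-73046095, plus strand) had 34 and Robo2 (chr16:73891839-74411825, minus strand) had 21, all in mm10 with the GENCODE M21 annotation. Regions are named below by the gene and by the distance of their centre from the annotated gene start in the direction of transcription.

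After a minimum of 2000 counts, 9472 Enl-WT and 12635 Enl-T1 nuclei were kept, with median depths of 14789.5 and 8753 counts in peaks. Nuclei were clustered without the member regions and clusters were named from marker genes. The nephron progenitor-like class had 1928 nuclei of the Enl-WT library and 4347 of the Enl-T1 library, and the stroma-like class had 2920 and 4789. Ureteric epithelium-like nuclei numbered 935 and 1885, and endothelial-like nuclei 760 and 601. The podocyte-like class had 319 Enl-WT and 0 Enl-T1 nuclei, so that class has no comparison. The libraries filled different clusters of the progenitor class: cluster 2 held 1836 and 103 nuclei (Enl-WT first), cluster 0 held 0 and 2711, cluster 6 held 1 and 1191, and cluster 16 held 91 and 342. The summed accessibility of 7 nephron progenitor markers in the class was 303 CPM (counts in a region per 1000000 counts in shared regions) in Enl-WT and 245 CPM in Enl-T1, that of 7 early nephron epithelium markers was 287 and 375 CPM, and that of 8 interstitial stroma markers was 167 and 157 CPM. In the class, 1, 5 and 4 markers of these lists were higher in Enl-T1. Their part in the values below was not tested. With 1 library per group there is no replicate check and no test, the library cannot be told apart from the genotype, and the 95% intervals given after each value cover counting error only.

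The 6 stretches of sequence below show the regions on which the comparisons turn: for each gene the region with the highest ratio of Enl-T1 to Enl-WT in nephron progenitor-like nuclei, the second Slit2 region beside the first, and the Robo1 region with the lowest ratio. Each is the central 300 bp of its region in mm10, given on the plus strand, with capitals marking matches to any of 8 short motifs on either strand. The Slit2 +247.7 kb stretch lies at chr5:48230726-48231025, the Slit2 +251.6 kb stretch at chr5:48234617-48234916, the Slit3 +83.0 kb stretch at chr11:35204056-35204355, the Robo1 +411.1 kb stretch at chr16:72719251-72719550, the Robo1 +500.2 kb stretch at chr16:72808352-72808651 and the Robo2 +447.2 kb stretch at chr16:73964474-73964773, all within introns.
Slit2 +247.7 kb: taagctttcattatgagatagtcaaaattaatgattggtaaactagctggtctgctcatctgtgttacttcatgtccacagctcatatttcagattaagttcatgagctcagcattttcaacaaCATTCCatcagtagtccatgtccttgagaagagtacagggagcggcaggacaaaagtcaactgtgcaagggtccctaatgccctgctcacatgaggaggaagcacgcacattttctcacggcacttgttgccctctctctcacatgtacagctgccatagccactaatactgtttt
Slit2 +251.6 kb: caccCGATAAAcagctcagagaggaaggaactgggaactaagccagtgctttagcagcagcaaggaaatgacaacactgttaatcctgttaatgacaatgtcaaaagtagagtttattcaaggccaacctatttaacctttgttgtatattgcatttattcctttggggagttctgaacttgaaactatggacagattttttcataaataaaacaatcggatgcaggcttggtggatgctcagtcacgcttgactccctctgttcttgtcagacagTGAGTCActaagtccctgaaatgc
Slit3 +83.0 kb: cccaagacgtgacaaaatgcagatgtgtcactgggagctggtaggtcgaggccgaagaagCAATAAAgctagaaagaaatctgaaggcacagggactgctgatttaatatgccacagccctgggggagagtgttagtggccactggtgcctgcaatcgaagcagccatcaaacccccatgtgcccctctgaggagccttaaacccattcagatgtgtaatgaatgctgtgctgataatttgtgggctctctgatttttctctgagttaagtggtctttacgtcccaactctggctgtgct
Robo1 +411.1 kb: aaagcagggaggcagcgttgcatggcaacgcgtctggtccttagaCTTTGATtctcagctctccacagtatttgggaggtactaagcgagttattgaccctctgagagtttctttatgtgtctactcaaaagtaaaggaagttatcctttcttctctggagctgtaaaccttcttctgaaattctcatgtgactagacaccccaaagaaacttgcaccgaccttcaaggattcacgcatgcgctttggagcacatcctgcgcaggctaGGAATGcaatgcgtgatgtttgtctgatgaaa
Robo1 +500.2 kb: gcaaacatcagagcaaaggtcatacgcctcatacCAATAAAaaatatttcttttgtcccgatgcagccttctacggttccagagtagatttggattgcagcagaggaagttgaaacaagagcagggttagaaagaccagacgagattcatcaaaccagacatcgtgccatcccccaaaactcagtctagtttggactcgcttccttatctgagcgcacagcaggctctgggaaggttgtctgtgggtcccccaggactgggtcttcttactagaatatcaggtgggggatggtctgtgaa
Robo2 +447.2 kb: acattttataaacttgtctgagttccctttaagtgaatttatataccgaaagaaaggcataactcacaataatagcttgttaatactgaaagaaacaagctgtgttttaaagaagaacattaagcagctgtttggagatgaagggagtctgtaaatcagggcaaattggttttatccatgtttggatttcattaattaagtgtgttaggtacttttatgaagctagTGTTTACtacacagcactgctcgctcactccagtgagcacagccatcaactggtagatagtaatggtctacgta

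The motifs searched were AP-1 (TGANTCA), TEAD (GGAATG), TCF/LEF (CTTTGAT), posterior HOX (TTTATNG), FOX (TGTTTAC), WT1/EGR (GCGTGGG), Six2-family (AGGTTTC) and CTCF (AGGNGGC). The Slit2 +247.7 kb stretch held 1 TEAD match, and its neighbour at +251.6 kb held 1 AP-1 and 1 posterior HOX match. The Slit3 +83.0 kb and Robo1 +500.2 kb stretches each held 1 posterior HOX match, although the first was higher and the second lower in Enl-T1. Robo1 +411.1 kb held 1 TEAD and 1 TCF/LEF match, and Robo2 +447.2 kb held 1 FOX match. No motif was shared by all 6 stretches. Among 110665 shared regions on assembled chromosomes, cut to the same length, 10.1% held the AP-1 letters, 18.1% TEAD, 4.78% TCF/LEF, 15.4% posterior HOX, 4.76% FOX, 3.27% WT1/EGR, 4.99% Six2-family and 26.2% CTCF. Among the 127 member regions the shares were 13.4%, 15.7%, 7.09%, 18.1%, 2.36%, 3.15%, 6.30% and 17.3%. A match is a match of letters and does not show that a factor binds there.

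Of the ligands, Slit2 was most accessible in the nephron lineage of Enl-WT. Summed over its shared regions, it stood at 125 CPM (115 to 136) in distal tubule or loop-like nuclei, 120 CPM (111 to 129) in proximal tubule-like nuclei and 119 CPM (113 to 125) in nephron progenitor-like nuclei, levels whose intervals overlap. The unnamed cluster 13, which scored highest for early nephron epithelium markers, had 130 CPM (120 to 141) in Enl-WT, which overlaps all of these. Podocyte-like nuclei had 103 CPM (88.3 to 120) and ureteric epithelium-like nuclei 99.7 CPM (92.2 to 108). Stroma-like nuclei had 77.0 CPM (73.0 to 81.1), endothelial-like nuclei 51.3 CPM (45.2 to 58.0) and immune-like nuclei 21.8 CPM (10.2 to 40.8), each below the class before it with intervals that do not overlap. Slit3 had a sharper order. Among the named classes it was highest in nephron progenitor-like nuclei at 549 CPM (537 to 562). Cluster 13 of Enl-WT had 544 CPM (523 to 565), which could not be separated from that level. Proximal tubule-like nuclei followed at 389 CPM (373 to 405) and distal tubule or loop-like nuclei at 323 CPM (306 to 339). Podocyte-like nuclei at 304 CPM (278 to 332) could not be separated from the distal tubule or loop-like nuclei above or from the stroma-like nuclei below, which had 291 CPM (283 to 299). Ureteric epithelium-like nuclei had 257 CPM (245 to 270), and endothelial-like and immune-like nuclei had 136 CPM (126 to 146) and 108 CPM (79.4 to 144), with intervals that overlap.

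The receptors had different orders. Robo1 lay between 165 and 187 CPM in several Enl-WT classes. It had 187 CPM in both proximal tubule-like (176 to 199) and stroma-like nuclei (180 to 193), 172 CPM (161 to 184) in endothelial-like, 167 CPM (148 to 188) in podocyte-like and 165 CPM (159 to 172) in nephron progenitor-like nuclei. It was lower in distal tubule or loop-like nuclei at 140 CPM (129 to 151), in ureteric epithelium-like nuclei at 115 CPM (107 to 124) and in immune-like nuclei at 37.9 CPM (21.9 to 61.2). Robo2 was the most uneven of the receptors. It reached 235 CPM (212 to 259) in podocyte-like nuclei, 156 CPM (150 to 163) in nephron progenitor-like nuclei and 143 CPM (138 to 149) in stroma-like nuclei. The unnamed cluster 13 of Enl-WT came next, at 127 CPM (117 to 138). All other classes lay well below, from 61.7 CPM (54.7 to 69.3) in distal tubule or loop-like and 57.9 CPM (52.2 to 64.1) in ureteric epithelium-like nuclei to 49.9 CPM (44.2 to 56.1) in proximal tubule-like, 39.8 CPM (34.4 to 45.7) in endothelial-like and 23.0 CPM (11 to 42.3) in immune-like nuclei, where each class overlaps the next.

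In Enl-T1 the nephron progenitor-like nuclei stood highest among the 4 large classes for every member gene. Slit2 had 150 CPM (145 to 155) there against 101 CPM (94.5 to 108) in ureteric epithelium-like, 92.8 CPM (88.4 to 97.4) in stroma-like and 61.7 CPM (52.2 to 72.5) in endothelial-like nuclei. Slit3 had 563 CPM (553 to 573), 287 CPM (276 to 299), 345 CPM (336 to 354) and 173 CPM (157 to 190) in the same classes. Robo1 had 196 CPM (190 to 202), 139 CPM (131 to 147), 181 CPM (174 to 187) and 172 CPM (156 to 190), so the order of its progenitor and stromal levels was the opposite of that in Enl-WT. Robo2 had 168 CPM (162 to 173), 62.6 CPM (57.4 to 68.2), 132 CPM (127 to 138) and 41.9 CPM (34.1 to 50.9). Divided by the length of the peaks, which allows genes to be set side by side, the levels in nephron progenitor-like nuclei of Enl-WT were 10.2 CPM per kb for Slit3, 7.35 for Robo2, 6.17 for Slit2 and 4.86 for Robo1. In Enl-T1 they were 11.4, 8.74, 7.95 and 6.08 CPM per kb, in the same order.

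**Figure D1:**
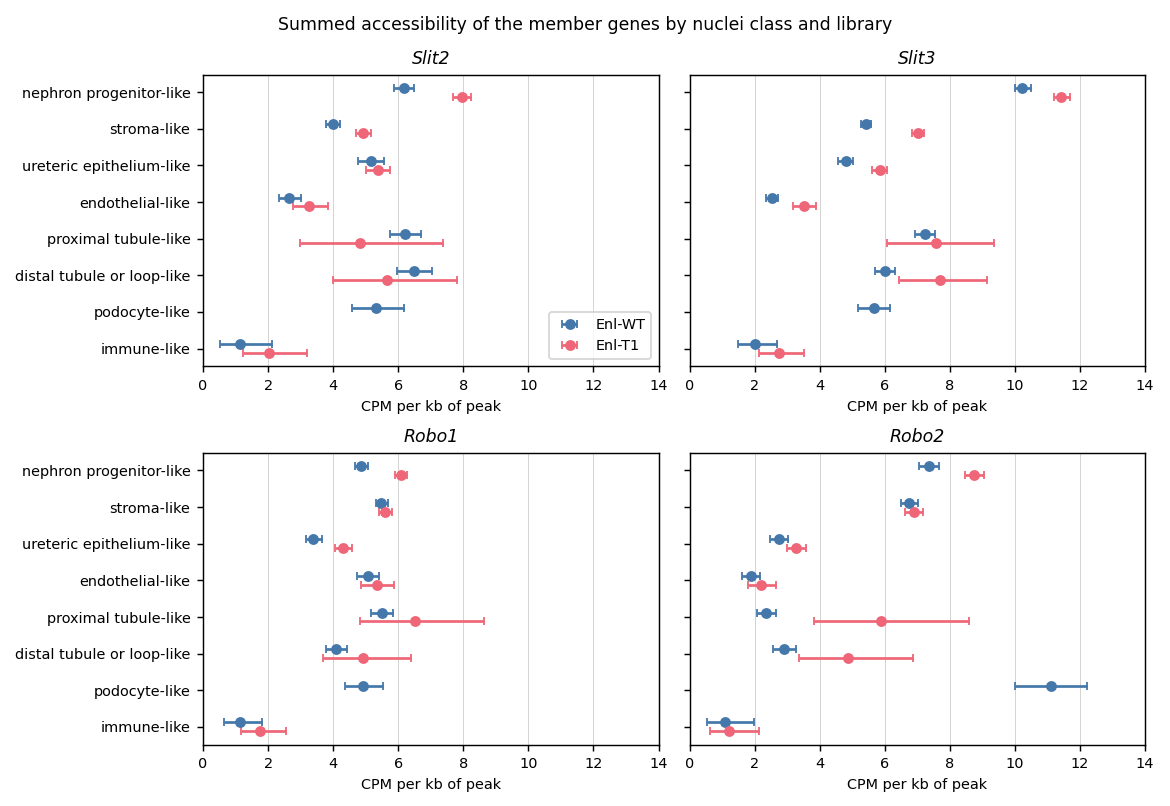
Summed accessibility of each member gene in CPM per kb of peak (x axis) by nuclei class (y axis) for Enl-WT (blue) and Enl-T1 (red); points are 1 library each, bars are 95% Poisson intervals on fragments, and classes with under 50 nuclei in a library are not drawn. Among the classes drawn, Slit3 stood highest in nephron progenitor-like nuclei at 10.2 and 11.4 CPM per kb, and Robo2 reached 11.1 CPM per kb in podocyte-like nuclei of Enl-WT.

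The comparison of Enl-T1 with Enl-WT addressed whether the mutation alters the open chromatin of the lineages that express the Cre. Summed over whole genes, the differences were small in the large classes. In nephron progenitor-like nuclei Slit2 had a log2 ratio (Enl-T1 over Enl-WT) of 0.33 (0.24 to 0.42), and the values were 0.04 (-0.01 to 0.08) for Slit3, 0.24 (0.17 to 0.32) for Robo1 and 0.10 (0.02 to 0.18) for Robo2. Stroma-like nuclei gave 0.27 (0.17 to 0.37), 0.25 (0.19 to 0.30), -0.05 (-0.12 to 0.02) and -0.12 (-0.20 to -0.04). In the ureteric epithelium-like class, outside the described Cre lineages, the values were 0.02 (-0.13 to 0.17), 0.16 (0.07 to 0.25), 0.27 (0.14 to 0.40) and 0.11 (-0.08 to 0.31). In the endothelial-like class, also outside the Cre lineages, they were 0.27 (-0.04 to 0.57), 0.35 (0.17 to 0.53), 0.00 (-0.17 to 0.17) and 0.08 (-0.29 to 0.43). All 16 values lay between the 5th and the 95th percentile of protein-coding genes with at least 100 counts in their class, which were -0.42 and 0.38 for progenitors, -0.30 and 0.34 for stroma, -0.31 and 0.36 for ureteric epithelium and -0.39 and 0.44 for endothelium. No member gene was past 2-fold in these classes, where the share of protein-coding genes at least 2-fold higher and lower was 0.425% and 0.461% for progenitors, 0.198% and 0.0901% for stroma, 0.154% and 0.0677% for ureteric epithelium and 0.306% and 0.0865% for endothelium. In the tubule classes, which held few Enl-T1 nuclei, Robo2 was higher in Enl-T1. It had 1.17 (0.53 to 1.75) in proximal tubule-like nuclei, past 2-fold, on 562 and 52 counts. In distal tubule or loop-like nuclei it had 0.60 (0.03 to 1.13), on 569 and 65 counts. Intervals of the other member genes hold 0 in both tubule classes, and the share of all genes past 2-fold there is not given. Each progenitor and stromal interval overlaps that of the same gene in at least 1 of the classes outside the Cre lineages. The stromal Robo2 value was -0.03 with peaks matched at 80% overlap both ways, and it was 0.02 without clusters 8 and 14, which held 10 and 29 Enl-WT nuclei beside 1113 and 571 Enl-T1 nuclei.

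The whole-gene progenitor values also moved with the clusters that Enl-T1 filled almost alone. With clusters 2 and 16 alone, which held nuclei of both libraries, the log2 ratio was 0.10 (-0.09 to 0.29) for Slit2, -0.21 (-0.30 to -0.11) for Slit3, 0.04 (-0.12 to 0.20) for Robo1 and 0.00 (-0.17 to 0.16) for Robo2, a choice made after the data had been seen. Slit2 stood at 120 CPM (114 to 126) in cluster 2 of Enl-WT, and in Enl-T1 at 127 CPM (96.9 to 164) in cluster 2, 128 CPM (112 to 146) in cluster 16, 153 CPM (146 to 160) in cluster 0 and 151 CPM (141 to 162) in cluster 6.

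Single regions spread far more widely than whole genes. In nephron progenitor-like nuclei 119 member regions had at least 100 counts over both libraries, and their log2 ratios ran from -1.22 to 2.79 with a median of 0.12. Of these, 7 (5.88%) were at least 2-fold higher and 4 (3.36%) at least 2-fold lower in Enl-T1, against 5.32% and 4.08% of the 97244 regions tested in the class, so the member regions moved about as often as regions in general. The median over all regions was 0.01. The higher regions were 2 of 17 for Slit2, 2 of 54 for Slit3, 1 of 28 for Robo1 and 2 of 20 for Robo2. The lower regions were 2 of Slit3 and 2 of Robo1. In stroma-like nuclei 111 member regions had at least 100 counts and ratios from -1.11 to 1.44. There 4 (3.60%) were at least 2-fold higher and 2 (1.80%) at least 2-fold lower, against 2.19% and 1.22% of 98774 regions.

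**Figure D2:**
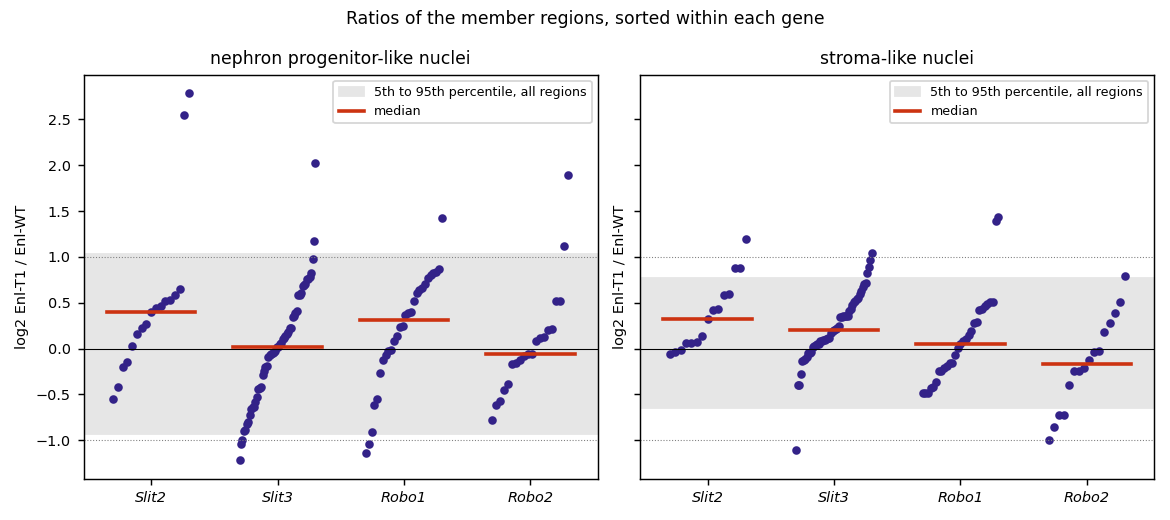
Log2 Enl-T1 over Enl-WT (y axis) of every member region with at least 100 counts, sorted within each gene (x axis), in nephron progenitor-like (left) and stroma-like nuclei (right); points are regions of 1 library per group, red lines are medians, dotted lines mark 2-fold and the grey band spans the 5th to the 95th percentile of all regions. Most points lie inside the band, and the highest, in nephron progenitor-like nuclei, are 2 Slit2 regions at 2.79 and 2.55.

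The Slit2 gene had 2 regions past 2-fold in nephron progenitor-like nuclei, and they are neighbours. The region at +247.7 kb (chr5:48230354-48231397) had 48 counts for Enl-WT and 506 for Enl-T1, or 1.77 CPM (1.13 to 2.63) and 12.3 CPM (10.9 to 13.9), a log2 ratio of 2.79 (2.20 to 3.47). The region at +251.6 kb (chr5:48234291-48235243) had 13 and 119 counts, or 0.479 CPM (0.184 to 1.01) and 2.90 CPM (2.21 to 3.74), a ratio of 2.55 (1.43 to 4.03). The sequences of both are printed above. They lie 6.30 and 10.2 kb downstream of Mir218-1, which is itself in a Slit2 intron, and they were the 2 shared regions of Slit2 nearest to it. The next nearest, 16.5 kb away, had 90 and 189 counts and a ratio of 0.47 (-0.05 to 1.02).

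The classes differed between these neighbours. The +247.7 kb region had 1.52 CPM (1.00 to 2.20) and 2.31 CPM (1.66 to 3.12) in stroma-like nuclei of Enl-WT and Enl-T1, and under 2 CPM in the ureteric epithelium-like and endothelial-like nuclei of both libraries. In Enl-WT it stood higher in podocyte-like nuclei, at 8.0 CPM (4.32 to 13.5), and in proximal tubule-like nuclei, at 4.71 CPM (3.09 to 6.87), than in nephron progenitor-like nuclei. The +251.6 kb region was instead open in stroma-like nuclei of both libraries, at 3.12 CPM (2.36 to 4.05) and 5.75 CPM (4.70 to 6.97), and the progenitor level in Enl-T1 lay in the range of the stromal level in Enl-WT. In podocyte-like nuclei it had 0 counts, which allows up to 2.18 CPM. Within the progenitor class the +247.7 kb region had 15.0 CPM (12.9 to 17.3) in cluster 0, 8.05 CPM (5.89 to 10.7) in cluster 6 and 9.85 CPM (5.74 to 15.8) in cluster 16 of Enl-T1, while the 103 Enl-T1 nuclei in cluster 2 had 2 counts, or 2.16 CPM (0.0546 to 12.0). These stand against 1.71 CPM (1.07 to 2.59) in cluster 2 and 2.77 CPM (0.335 to 10.0) in cluster 16 of Enl-WT. Without cluster 0 its ratio was 2.19.

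At the Slit2 promoter the libraries were close. The region over the start site (chr5:47982660-47983551) had 718 and 1265 counts in nephron progenitor-like nuclei, or 26.4 and 30.8 CPM, a log2 ratio of 0.22 (0.03 to 0.41), and 888 and 920 counts in stroma-like nuclei, or 24.5 and 25.6 CPM, a ratio of 0.06 (-0.13 to 0.25). The 2 other regions most counted over all nuclei, at +3.1 kb (chr5:47985821-47986609) and +2.2 kb (chr5:47985045-47985732), had ratios of 0.40 (0.13 to 0.68) and 0.44 (0.12 to 0.76) in nephron progenitor-like nuclei. In stroma-like nuclei they had 0.32 (-0.06 to 0.72) and -0.06 (-0.48 to 0.35). The lowest Slit2 ratio among progenitors was -0.55 (-1.31 to 0.22) at +130.6 kb (chr5:48113039-48114460), an interval that holds 0. In stroma-like nuclei the intronic region at +143.2 kb (chr5:48125594-48127117) was past 2-fold, with 67 and 154 counts and a ratio of 1.20 (0.61 to 1.84).

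Slit3 had the most regions and the largest counts. Its highest region in nephron progenitor-like nuclei, in an intron at +83.0 kb (chr11:35203673-35204739), had 146 and 898 counts, or 5.37 CPM (4.21 to 6.76) in Enl-WT and 21.9 CPM (19.9 to 24.0) in Enl-T1, which is a log2 ratio of 2.02 (1.67 to 2.40). The level was higher in Enl-T1 in stroma-like nuclei too, at 3.12 and 6.14 CPM with a ratio of 0.97 (0.50 to 1.47), but not in ureteric epithelium-like nuclei, which had 12.0 CPM (9.5 to 15.0) and 11 CPM (8.88 to 13.5). Distal tubule or loop-like nuclei of Enl-WT had 18.6 CPM (14.9 to 23.0), and the unnamed cluster 13, which scored highest for early nephron epithelium markers, had 11.1 CPM (8.25 to 14.5) in Enl-WT. In Enl-T1 cluster 0 had 26.7 CPM (23.9 to 29.7), cluster 6 had 13.3 CPM (10.5 to 16.6), cluster 16 had 16.8 CPM (11.2 to 24.1) and the 103 nuclei in cluster 2 had 15.1 CPM (6.07 to 31.1). In Enl-WT cluster 2 had 5.44 CPM (4.24 to 6.88) and cluster 16 had 4.16 CPM (0.857 to 12.1). Each Enl-T1 cluster thus lay above each Enl-WT cluster, with overlapping intervals where nuclei were few.

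The Slit3 regions past 2-fold in the other direction were more open in progenitor-like than in stroma-like nuclei of Enl-WT. The region at +472.5 kb (chr11:35593269-35594175) had 984 and 725 counts, or 36.2 CPM (33.1 to 39.6) in Enl-WT and 17.7 CPM (15.9 to 19.6) in Enl-T1, which is a log2 ratio of -1.04 (-1.24 to -0.84). In stroma-like nuclei it had only 2.57 and 2.33 CPM. Its level was lower in cluster 16 of Enl-T1, at 7.24 CPM (3.80 to 12.5), than in cluster 16 of Enl-WT, at 33.2 CPM (21.3 to 49.5). In cluster 2 the intervals overlap, at 36.4 CPM (33.2 to 39.9) in Enl-WT and 22.7 CPM (11.1 to 41.1) in Enl-T1, and clusters 0 and 6 of Enl-T1 had 16.4 CPM (14.2 to 18.8) and 23.3 CPM (19.5 to 27.6). The region at +352.3 kb (chr11:35473067-35473925) had 217 and 141 counts and a ratio of -1.22 (-1.67 to -0.77), the lowest of Slit3, but its peak was 859 bp wide in Enl-WT and 560 bp wide in Enl-T1, and per base pair the ratio was -0.60. A further higher region, at +272.8 kb (chr11:35393547-35394479), had 72 and 246 counts in nephron progenitor-like nuclei, a ratio of 1.17 (0.63 to 1.76), and 281 and 516 counts in stroma-like nuclei, a ratio of 0.89 (0.58 to 1.19).

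The Slit3 regions most counted over all nuclei were close between the libraries in nephron progenitor-like nuclei. The region at +162.1 kb (chr11:35282836-35283743) had 36.6 and 35.9 CPM there, a log2 ratio of -0.03 (-0.19 to 0.14), and the region at +30.5 kb (chr11:35151295-35152229) had 19.8 and 21.3 CPM, a ratio of 0.10 (-0.12 to 0.32). In stroma-like nuclei they stood at 6.93 and 9.20 CPM and at 2.59 and 2.36 CPM. The start site region (chr11:35120555-35121836) had 24.1 and 28.0 CPM in nephron progenitor-like nuclei, a ratio of 0.22 (0.02 to 0.42), and 22.6 and 24.6 CPM in stroma-like nuclei, a ratio of 0.12 (-0.07 to 0.32). Near Mir218-2, the closest region had 310 and 297 counts and a ratio of -0.66 (-0.99 to -0.32) at a gap of 3.81 kb, and the next had 320 and 817 counts and a ratio of 0.76 (0.49 to 1.03) at 9.42 kb. The pattern beside Mir218-1 was therefore not repeated at Mir218-2. In stroma-like nuclei 1 Slit3 region was past 2-fold in each direction, +264.6 kb (chr11:35385141-35386599) with 87 and 178 counts and a ratio of 1.04 (0.50 to 1.60), and +103.0 kb (chr11:35223644-35224717) with 122 and 56 counts and a ratio of -1.11 (-1.81 to -0.45).

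**Figure D3:**
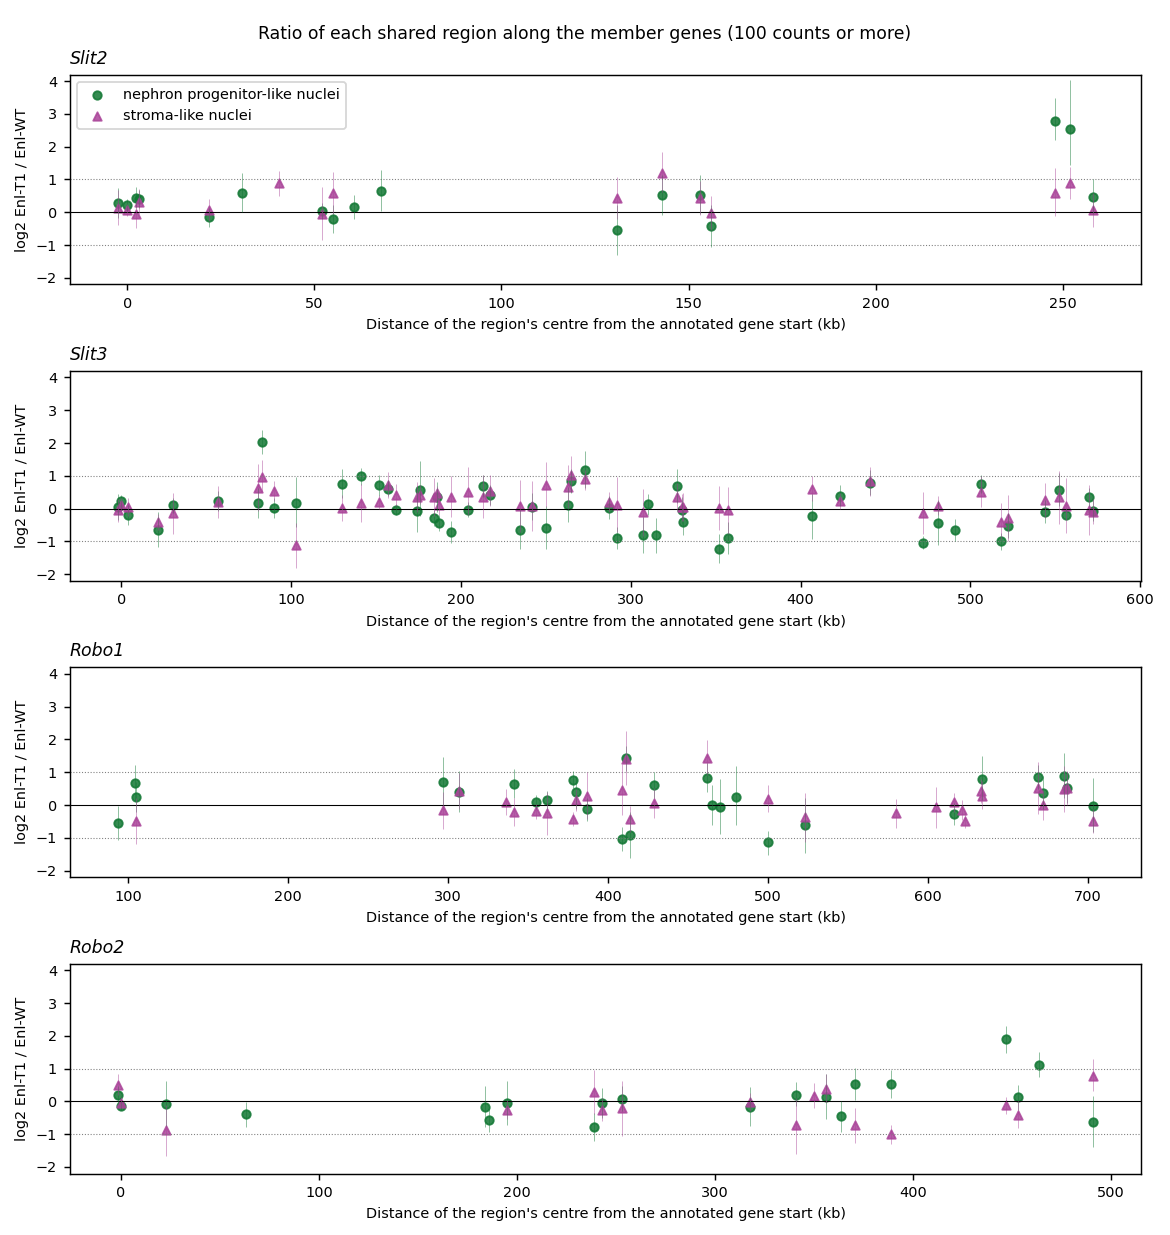
Log2 ratio of Enl-T1 to Enl-WT (y axis) of each region with at least 100 counts against the distance of its centre from the annotated gene start in kb (x axis), 1 panel per gene, in nephron progenitor-like (green circles) and stroma-like nuclei (purple triangles); each point compares 1 library with 1 library, vertical lines are 95% intervals and dotted lines mark 2-fold. The highest points are the Slit2 neighbours at 2.79 and 2.55, the Slit3 region at 2.02 and the Robo2 region at 1.89, while the start sites lie near 0.

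Robo1, the first of the receptors, had its open GENCODE start at an internal transcript. No shared region lay within 1 kb of the gene start in that annotation, though one lay over the more distal RefSeq start, and the 1 shared region over a coding transcript start was the one at +354.9 kb (chr16:72662812-72663618). It had 590 and 943 counts in nephron progenitor-like nuclei, or 21.7 and 23.0 CPM, a log2 ratio of 0.08 (-0.13 to 0.30), and 710 and 618 counts in stroma-like nuclei, or 19.6 and 17.2 CPM, a ratio of -0.19 (-0.42 to 0.03). The other region most counted over all nuclei, at +377.9 kb (chr16:72685714-72686657), was higher in Enl-T1 in nephron progenitor-like nuclei, with 12.3 and 20.9 CPM and a ratio of 0.77 (0.51 to 1.04), and lower in stroma-like nuclei, with 24.6 and 18.3 CPM and a ratio of -0.42 (-0.63 to -0.22). The region at +616.4 kb (chr16:72924172-72925226) had ratios of -0.27 (-0.61 to 0.07) and 0.08 (-0.21 to 0.36).

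Neighbouring Robo1 regions went in opposite directions in nephron progenitor-like nuclei. The region at +411.1 kb (chr16:72718752-72720049) had 147 and 594 counts, or 5.41 CPM (4.25 to 6.80) and 14.5 CPM (12.9 to 16.2), a log2 ratio of 1.42 (1.05 to 1.81). The region at +409.3 kb (chr16:72716943-72718330) had 288 and 212 counts, or 10.6 and 5.17 CPM, a ratio of -1.04 (-1.41 to -0.67). The peaks of the first were 776 bp wide in Enl-WT and 1182 bp wide in Enl-T1, so its ratio per base pair was 0.81, while those of the second were 1209 and 1210 bp wide. In Enl-T1 the +411.1 kb region stood at 15.7 CPM (13.6 to 18.0) in cluster 0 and 14.5 CPM (11.6 to 18.0) in cluster 6. In cluster 2 it had 5.64 CPM (4.42 to 7.10) in Enl-WT and 4.32 CPM (0.523 to 15.6) in Enl-T1, and in cluster 16 it had 1.39 CPM (0.0351 to 7.72) and 8.11 CPM (4.43 to 13.6), with overlapping intervals in both clusters. The lowest Robo1 region was at +500.2 kb (chr16:72808024-72808980), with 319 and 218 counts, or 11.7 CPM (9.99 to 13.7) and 5.31 CPM (4.36 to 6.41), and a ratio of -1.14 (-1.51 to -0.78). In stroma-like nuclei it had 5.25 CPM (4.24 to 6.41) and 6.0 CPM (4.92 to 7.25). Cluster 2 of Enl-T1 had 15.1 CPM (6.07 to 31.1) there, close to the 11.7 CPM (9.91 to 13.7) of cluster 2 in Enl-WT, but cluster 16 had 12.5 CPM (5.70 to 23.7) in Enl-WT and 4.92 CPM (2.19 to 9.51) in Enl-T1. Clusters 0 and 6 of Enl-T1 had 4.36 CPM (3.29 to 5.68) and 6.74 CPM (4.78 to 9.23).

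In stroma-like nuclei the +411.1 kb region was past 2-fold as well, with 38 and 100 counts and a log2 ratio of 1.39 (0.62 to 2.25). The highest Robo1 region there was +461.8 kb (chr16:72768955-72771238), with 85 and 230 counts, or 2.35 and 6.39 CPM, and a ratio of 1.44 (0.93 to 1.99). The lowest was +622.5 kb (chr16:72930247-72931453), a region open mainly in stroma, with 22.4 and 16 CPM and a ratio of -0.49 (-0.71 to -0.27). Outside the described Cre lineages the +411.1 kb region was also higher in Enl-T1, on under 100 counts per class. Counts of 15 and 25 in the endothelial-like class gave a ratio of 1.76 (0.36 to 3.31). For the ureteric epithelium-like class, 9 and 40 counts gave 1.75 (0.29 to 3.68). Ratios of the +461.8 kb region in these classes were 2.01 (0.36 to 3.94) and 0.23 (-0.65 to 1.16), also on under 100 counts. The cause of these differences was not tested.

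Robo2, the receptor with a known role in ureteric bud outgrowth, had 2 regions past 2-fold in nephron progenitor-like nuclei, both in the last part of the gene. The intronic region at +447.2 kb (chr16:73964159-73965089) had 121 and 678 counts, or 4.45 CPM (3.40 to 5.73) and 16.5 CPM (14.8 to 18.4), a log2 ratio of 1.89 (1.49 to 2.31). In stroma-like nuclei it was open in both libraries, at 14.7 CPM (13 to 16.6) and 13.5 CPM (11.9 to 15.3), a ratio of -0.12 (-0.38 to 0.14), and podocyte-like nuclei of Enl-WT had 26.7 CPM (19.4 to 35.7). The progenitor level in Enl-T1 thus reached the range of the stromal level. Cluster 13 of Enl-WT had 9.13 CPM (6.59 to 12.3). Within the progenitor class, cluster 2 of Enl-WT had 4.12 CPM (3.09 to 5.39) and cluster 16 of Enl-WT had 10.4 CPM (4.34 to 20.9), and Enl-T1 had 21.6 CPM (19.1 to 24.3) in cluster 0, 7.96 CPM (5.82 to 10.6) in cluster 6, 12.2 CPM (7.53 to 18.6) in cluster 16 and 0 counts in the 103 nuclei of cluster 2, which allows up to 7.96 CPM. In cluster 16, with 91 and 342 nuclei, the intervals of the libraries overlap, and without cluster 0 the ratio of the class was 0.92, under 2-fold.

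The region at +464.0 kb (chr16:73947401-73948294), which overlaps a coding exon of Robo2, had 156 and 513 counts, or 5.74 CPM (4.54 to 7.17) and 12.5 CPM (11 to 14.1), a log2 ratio of 1.12 (0.75 to 1.51). Unlike its neighbour it was nearly closed in stroma-like nuclei, at 0.828 and 1.56 CPM. Its ratio was 0.60 without cluster 0. The start site region of Robo2 (chr16:74411289-74412425), the most counted of the gene over all nuclei, had 1363 and 1884 counts in nephron progenitor-like nuclei, or 50.2 and 45.9 CPM, a ratio of -0.13 (-0.27 to 0.02), and 32.1 and 31.2 CPM in stroma-like nuclei, a ratio of -0.04 (-0.21 to 0.13). The region upstream at -1.3 kb (chr16:74412690-74413611) had ratios of 0.20 (-0.08 to 0.48) and 0.51 (0.19 to 0.85). The lowest progenitor ratio of Robo2 was -0.78 (-1.20 to -0.36), at +238.9 kb (chr16:74172345-74173414), and its highest in stroma-like nuclei was 0.79 (0.32 to 1.28), at +490.5 kb (chr16:73920766-73921831). In stroma-like nuclei 1 Robo2 region was past 2-fold, at +389.0 kb (chr16:74022184-74023537), with 634 and 314 counts, or 17.5 CPM (15.6 to 19.5) and 8.73 CPM (7.41 to 10.2), a ratio of -1.0 (-1.29 to -0.72). Without clusters 8 and 14 that ratio was -0.64.

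**Figure D4:**
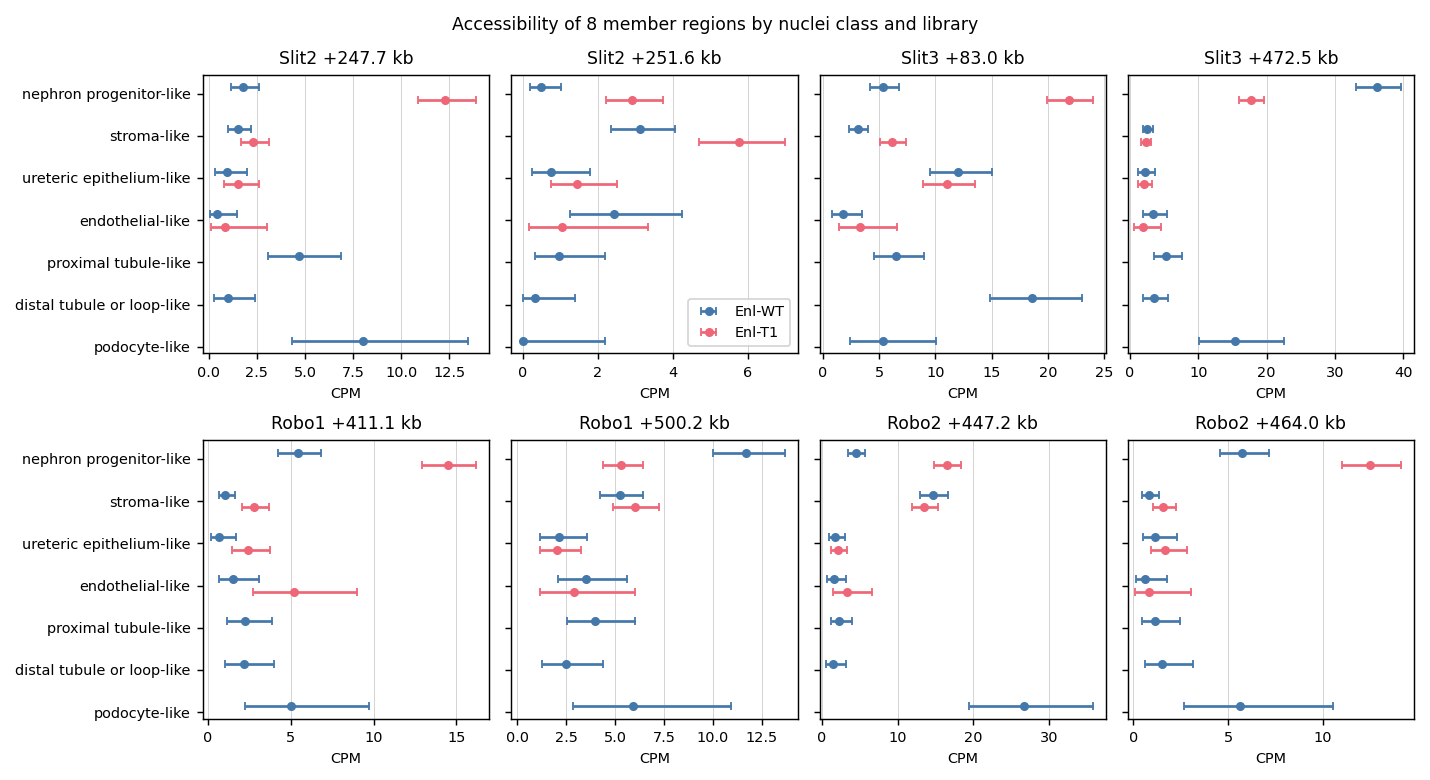
Accessibility in CPM (x axis) of 8 member regions by nuclei class (y axis) in Enl-WT (blue) and Enl-T1 (red); points are 1 library each, bars are 95% Poisson intervals on fragments, and classes with under 100 nuclei in a library are not drawn. Robo2 +447.2 kb was at 4.45 CPM in nephron progenitor-like nuclei of Enl-WT and at 16.5 CPM in those of Enl-T1, beside 14.7 and 13.5 CPM in stroma-like nuclei.

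The 6 member regions past 2-fold in stroma-like nuclei had peaks of unequal width, wider in the library with the higher level. How often this holds among all regions past 2-fold is not given. The widths were 905 and 1524 bp for Slit2 +143.2 kb, 995 and 1459 bp for Slit3 +264.6 kb, 956 and 843 bp for Slit3 +103.0 kb, 776 and 1182 bp for Robo1 +411.1 kb, 1595 and 1736 bp for Robo1 +461.8 kb and 1354 and 841 bp for Robo2 +389.0 kb, with Enl-WT first. Per base pair the ratios were 0.45, 0.49, -0.93, 0.79, 1.32 and -0.32. Peaks overlapped by at least 80% both ways in 9 of 18 regions for Slit2, 39 of 54 for Slit3, 24 of 34 for Robo1 and 18 of 21 for Robo2. Of all shared regions, 75584 of 110706 were so matched. Among the matched regions, 0 member regions were past 2-fold in stroma-like nuclei in either direction. The share of all matched regions past 2-fold is not given beside it. Nothing about the members is read from this 0 or from the widths of the 6 regions, and the part of peak width was not tested. In nephron progenitor-like nuclei, 9 of the 11 regions past 2-fold had such matched peaks.

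**Figure D5:**
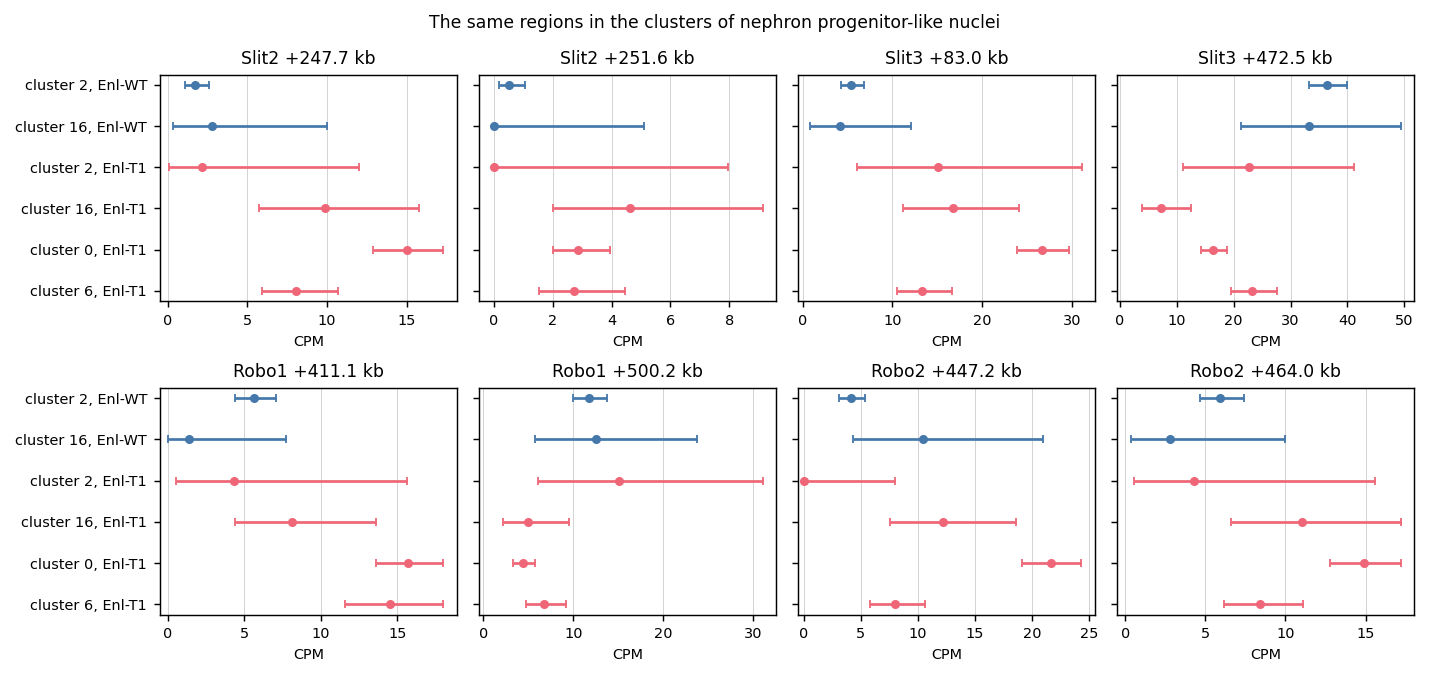
Accessibility in CPM (x axis) of the same 8 regions in the clusters of nephron progenitor-like nuclei (y axis), Enl-WT in blue and Enl-T1 in red; points are the summed nuclei of a cluster in 1 library and bars are 95% Poisson intervals on fragments. Slit3 +83.0 kb stood at 4.16 and 5.44 CPM in the Enl-WT clusters and at 13.3 to 26.7 CPM in the Enl-T1 clusters, while Robo2 +447.2 kb ran from 0 counts in cluster 2 to 21.6 CPM in cluster 0 within Enl-T1.

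Fewer member regions had enough counts in the other lineages. In ureteric epithelium-like nuclei 51 had at least 100 counts, and 3 (5.88%), all of Slit3, were at least 2-fold higher, against 1.70% of 64406 regions and the same share of members as in progenitors. They had 86 and 220, 40 and 149, and 31 and 97 counts, with log2 ratios of 1.00 (0.49 to 1.55), 1.54 (0.82 to 2.34) and 1.28 (0.45 to 2.23). None was at least 2-fold lower, against 0.573%. In endothelial-like nuclei only 9 member regions had 100 counts, of which 0 were at least 2-fold higher, against 0.624% of 34762 regions, and 1, of Robo1, was at least 2-fold lower, against 1.56%. It had 162 and 37 counts and a ratio of -1.07 (-1.90 to -0.34). The depth of this class did not allow most member regions to be compared.

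Nephron progenitor-like and stroma-like nuclei differed more from each other than the libraries did. In Enl-WT, 29 of 54 Slit3 regions (53.7%) were at least 2-fold higher in nephron progenitor-like than in stroma-like nuclei and 7 (13%) at least 2-fold lower, against 22.4% and 22.1% of all shared regions with 100 counts. In Enl-T1 these numbers were 25 and 7, against 20.9% and 21.0% of regions, and the median log2 difference of the Slit3 regions was 1.29 in Enl-WT and 0.74 in Enl-T1. Robo1 was more balanced, with 9 of 32 regions higher in progenitors and 11 higher in stroma in Enl-WT, and 8 and 7 of 34 in Enl-T1. Slit2 had 6 and 2 of 18 regions in Enl-WT and 7 and 1 in Enl-T1, and Robo2 had 8 and 5 of 21 in both.

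Peaks called in 1 library alone were left out of the sums above, since the other library has no count for them. Over the member genes 75 of 203 Enl-WT peaks (36.9%) and 26 of 156 Enl-T1 peaks (16.7%) were of this kind, beside 47872 of 159560 (Enl-WT) and 17478 of 130027 (Enl-T1) peaks in all. Robo2 had 15 in Enl-WT and 1 in Enl-T1, Robo1 28 and 8, Slit3 24 and 12, and Slit2 8 and 5. The library with more counts had more of them, and a missing peak is not a closed region. The 2 most counted were, for Slit3, Enl-WT peaks at chr11:35276289-35277322 and chr11:35667075-35668950 with 825 and 802 counts over all nuclei, or 6.73 and 6.55 CPM. For Robo1 they were Enl-WT peaks at chr16:72990073-72991084 and chr16:72657257-72659021 with 739 and 552 counts. For Slit2 they were an Enl-WT peak at chr5:48247881-48248998 with 537 counts and an Enl-T1 peak at chr5:48019621-48020559 with 430 counts, of which 290 lay in stroma-like nuclei, and for Robo2 Enl-WT peaks at chr16:74188011-74189052 and chr16:73990970-73991875 with 317 and 285 counts.

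RefSeq places start sites of Robo1 and Robo2 further upstream than GENCODE M21 does. The longer windows add 8 shared regions to Robo1 and 25 to Robo2, a choice made after the data had been seen. With them Robo1 had a progenitor log2 ratio of 0.33 (0.26 to 0.40) and Robo2 one of 0.05 (0.00 to 0.11). Not all of the added regions had 100 counts. Of the 8 and 25 added regions, 4 had 100 counts and were at least 2-fold higher in Enl-T1 in nephron progenitor-like nuclei. Most of the 4 were of Robo1. The number of added regions with 100 counts is not given, so the 4 have no share to set beside that of all regions. Nothing about the members is read from this count. The lowest ratio among those with 100 counts was -0.99 (-1.43 to -0.55), for Robo2 at -290 kb. Over all regions tested in the class, 5.32% were at least 2-fold higher and 4.08% at least 2-fold lower. The 4 higher regions are named here after their values were seen. For Robo1 the region at -106 kb (chr16:72201648-72202507) had 8 and 107 counts, or 0.295 and 2.61 CPM, a ratio of 3.07 (1.71 to 5.07) that is above those of all regions within the GENCODE windows. The Robo1 regions at -84.3 kb (chr16:72223466-72224481) and -92.4 kb (chr16:72215357-72216446) had 22 and 122 and 62 and 207 counts, with ratios of 1.85 (0.94 to 2.95) and 1.14 (0.55 to 1.77). The added Robo2 region nearest to the GENCODE start, at -8.66 kb (chr16:74419988-74420974), had 56 and 322 counts in nephron progenitor-like nuclei, or 2.06 and 7.85 CPM, a ratio of 1.92 (1.34 to 2.56). In stroma-like nuclei the Robo2 region at -494 kb (chr16:74905734-74906775) was lower, with 167 and 44 counts and a ratio of -1.90 (-2.66 to -1.22). The Robo1 region at -46.4 kb (chr16:72261467-72262300) was higher there, with 62 and 145 counts and a ratio of 1.23 (0.61 to 1.89). These were the added regions with 100 counts past 2-fold in that class, where 2.19% of all regions were at least 2-fold higher and 1.22% lower. The region over the most distal Robo2 start (chr16:75446606-75448094) had 116 and 180 counts and a ratio of 0.04 (-0.45 to 0.54), and the region over the distal Robo1 start (chr16:72027254-72028239) had 120 and 258 counts and a ratio of 0.51 (0.06 to 0.98).

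Other genes of the pathway and of early ureteric bud control were compared as whole genes. Of 35 such genes, including Slit1, Robo3 and Robo4, the Slit-Robo GTPase activators and Gdnf with its receptors, all had 100 counts and 0 were past 2-fold in either direction in any of the 4 classes. Their median log2 ratio was -0.04 among progenitors and -0.01 in stroma, beside 0.01 and 0.00 over all protein-coding genes. In nephron progenitor-like nuclei their ratios ran from -0.73 to 0.36, a range that reaches further down than the 0.04 to 0.33 of the member genes. The lowest, named after its values were seen, was Gfra1, the co-receptor of GDNF, with 165 and 99.8 CPM. The third Slit ligand, Slit1, had 173 and 114 CPM there, a ratio of -0.60 (-0.68 to -0.52), and 74.6 and 74.4 CPM in stroma-like nuclei, a ratio of -0.01 (-0.12 to 0.11). Robo3, a receptor known from commissural axons, had ratios of -0.03 (-0.20 to 0.13) and -0.21 (-0.38 to -0.03), and Robo4, a receptor of endothelium, had 0.24 (-0.06 to 0.55) and 0.09 (-0.19 to 0.36).

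Over 12 profiles of a class in a library with at least 100 nuclei, Pearson's r of log2 CPM was 0.918 between the ligands Slit2 and Slit3 and 0.604 between the receptors Robo1 and Robo2. Between ligand and receptor it was 0.74 for Slit3 and Robo2, 0.641 for Slit2 and Robo2, 0.561 for Slit2 and Robo1 and 0.529 for Slit3 and Robo1. The genes most like Slit2 were Pcsk2 (0.979), Sorcs3 (0.974) and Dab1 (0.968), those most like Slit3 were Mapk10 (0.989), Lmo3 (0.979) and Pcdh15 (0.971), those most like Robo1 were Timp1 (0.971), Foxc1 (0.958) and Map6d1 (0.958), and those most like Robo2 were Ebf2 (0.968), Frem1 (0.965) and Cdh11 (0.952). These are descriptions over profiles that share libraries and cell classes, among 16092 genes compared.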

How the data were processed

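Whole E15.5 kidneys were profiled by snATAC-seq, 1 library per group. Per the file headers and the submitters' processing notes, the authors used Cell Ranger ATAC 2.1.0 with mm10, called the peaks of each library on its own, and deposited raw counts per peak and barcode, with the peak and barcode lists. About 2 counts stand for 1 fragment (80.1% and 81.2% of listed values were 2). Counts in peaks over all barcodes totalled 138176616 in Enl-WT and 110265593 in Enl-T1. Of the counts in the kept nuclei, shared regions held 88.8% and 94.9%.

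Barcodes with 2000 to 100000 counts were kept, of which 149 were listed in both libraries. The study's further filters on fragments, start site signal and blacklisted regions need data not used here. Peaks overlapping by at least 1 bp were joined into shared regions. All kept nuclei were clustered in 1 run by latent semantic indexing (components 2 to 30, member regions left out, no integration) and Leiden clustering (leidenalg 0.10.2, resolution 1). Doublets were kept in the main analysis, since no removal is stated, and 718 and 1277 doublet-like nuclei were removed as an alternative. Clusters took the class with the highest mean marker log2 ratio (at least 0.4, 3 raised markers, a lead of 0.1 over the next lineage, no more markers of another class among the 10 leading genes). This scoring rule was set after clusters were seen: leading genes were limited to at least 30 CPM after Umod, with a lower limit, had kept the Enl-WT progenitor cluster unnamed.

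Counts were summed per class and library and scaled to the counts in shared regions (CPM). Gene ratios carry exact binomial intervals and levels exact Poisson intervals, at 95%, on counts divided by 2. Region ratios had 0.5 counts added, and regions with 100 counts over both libraries were compared with a fold of 2 in place of a test, since each group is 1 library and nuclei are not replicates. A count of 0 is given with its Poisson limit. The ratio code was tested on simulated data. Regions were named by rule: the start site, the 2 most counted others, the highest and lowest ratios in progenitor-like and stroma-like nuclei, and the 2 most counted peaks of 1 library. For the start site, a region over a coding transcript start was taken. The remaining regions past the fold, and those of the RefSeq windows and of the neighbourhood of the microRNA genes, were named after their values were seen. The members and lists were chosen with earlier results of these data known. Alternatives were edgeR 4.0.16 (TMM) and DESeq2 1.42.0 (median of ratios) scaling, matched peaks, other thresholds and other clusterings. Sequences came from GRCm38.p6.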

Additional observations from a re-analysis of the deposited data

Results flagged for a closer look

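Robo2 differed in direction between the lineages in which the Cre is expressed when its counts were summed without regard to peak length. Summed over its regions, the log2 ratio of Enl-T1 to Enl-WT was 0.10 (0.02 to 0.18) in nephron progenitor-like nuclei and -0.12 (-0.20 to -0.04) in stroma-like nuclei, with intervals on opposite sides of 0. Per kb of peak the ratios were 0.25 and 0.03, both above 0. The difference was not tested, since each group is 1 library. With matched peaks the stromal value was -0.03, and without clusters 8 and 14, which held mostly Enl-T1 nuclei, it was 0.02.

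A single Robo2 region, +389.0 kb, was flagged for the same reason, with log2 ratios of 0.52 (0.10 to 0.96) in nephron progenitor-like and -1.0 (-1.29 to -0.72) in stroma-like nuclei. Without clusters 8 and 14 the stromal value was -0.64. This difference was not tested either. The Enl-WT peak of that region was 1354 bp wide and the Enl-T1 peak 841 bp wide, and the ratios per base pair were 1.21 and -0.32.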

How the results depend on the processing

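No paired analysis was possible because each group is 1 library, and no replicate could be left out. Values below are gene log2 ratios, Enl-T1 over Enl-WT, for progenitor-like and stroma-like nuclei. Of 168 recomputed gene ratios and region counts in these classes, 136 stayed within the interval of the main value, or within 1.5 times the main count, and 32 moved further. With peaks matched at 80%, Slit2 had 0.48 and 0.16, Robo2 had -0.03 in stroma-like nuclei, and stromal regions past 2-fold numbered 0 higher and 0 lower. As shares of nuclei thinned to 2000 counts, stromal values were 0.15 for Slit3, -0.14 for Robo1 and -0.22 for Robo2. With components 2 to 15, Slit3 had 0.10 in progenitors, where 11 regions were higher. With the start site region alone, progenitor values were 0.22 for Slit2, 0.22 for Slit3, 0.08 for Robo1 and -0.13 for Robo2, and stromal values 0.06 for Slit2, 0.12 for Slit3 and -0.19 for Robo1. With a fold of 1.5 in place of 2, 27 regions were higher and 17 lower in progenitors, and 16 and 5 in stroma. The counts of regions in this section stand without the share of all regions at the same setting. Nothing about the members is read from them. These alternatives were chosen after seeing the data: without cluster 0, Slit3 had -0.03, and without cluster 6, 7 regions were lower in progenitors. With clusters 2 and 16 alone, Slit2, Slit3, Robo1 and Robo2 had 0.10, -0.21, 0.04 and 0.00 and 10 regions were lower. Without clusters 8 and 14, stromal values were 0.12 for Slit3 and 0.02 for Robo2, with 1 region lower. With the RefSeq window Robo1 had 0.33 in progenitors. The cause of these shifts was not tested, beyond the fewer regions or nuclei that the narrower settings hold. TMM and median of ratios shifted the ratios of a class by between -0.028 and -0.092. After thinning, the median log2 ratio over all endothelial-like regions was -0.12. The depth of 4797682 counts limits the endothelial-like class of Enl-T1.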
